A study of Mus musculus with 2 samples.

Results

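The late cornified envelope genes of mouse encode small, cysteine- and glycine-rich proteins that transglutaminases cross-link into the cornified envelope, the insoluble shell of the dead outer cells of the epidermis. In 2 single-cell libraries from mouse skin tumours, 10 of these genes were followed. The Lce1 group held Lce1a1, Lce1a2, Lce1b, Lce1c, Lce1d, Lce1l and Lce1m, and the Lce3 group held Lce3a, Lce3c and Lce3d. They were found by symbol among 32285 genes of the count matrices, where all 10 had a row, and 11 further genes of the family (Lce1e to Lce1k, Lce3b, Lce3e, Lce3f and Lce6a) are given for context.

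Envelope assembly is a late step of keratinocyte differentiation. Basal keratinocytes make Krt14, spinous cells switch to Krt1 and Krt10, and granular cells then make loricrin (Lor), the main envelope protein, and filaggrin (Flg), the precursor of the matrix protein that bundles keratin filaments. In normal skin the Lce1 genes belong to this last stage, while Lce3 genes are known mainly from injured, inflamed or psoriatic epidermis. Eed belongs to Polycomb repressive complex 2, which places a repressive methyl mark on histones.

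The tumours were taken from back skin when mice were 5 months old, and single cells were sequenced from the 3' ends of transcripts. Ctrl-D came from Eed flox/flox mice given ethanol, and Eed iKO-D from K14CrERT2;Eed flox/flox mice given hydroxyl-tamoxifen on the shaved back, once a day on 4 days from postnatal day 50. Mice of both groups received the carcinogen DMBA weekly for up to 20 weeks. Cre recombinase was driven by the keratin 14 promoter, which is active in basal keratinocytes. Cells outside the keratinocyte lineage, such as fibroblasts, therefore kept their Eed alleles by design. Cre and tamoxifen were both lacking in Ctrl-D and cannot be told apart from the deletion, and how many animals or tumours went into a library is not given in the sources used here. There was 1 library per group, so no test between groups was possible. Intervals in brackets are 95% intervals of counting error, which say nothing of the spread between animals or tumours.

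The libraries held 120500892 and 289511009 UMIs (unique molecular identifiers, counted transcripts) in 8039 and 22259 barcodes, in the order Ctrl-D and Eed iKO-D, and 49 barcodes occurred in both. After filtering, 7393 and 21484 cells were kept. The label calls the samples epidermal cancer cells, but keratinocyte clusters held 5415 Ctrl-D cells and 3046 Eed iKO-D cells. Unnamed clusters held 302 cells (4.08%) and 13887 cells (64.6%), and 1 of them, with 1748 Eed iKO-D cells, was led by Krt6b, Fabp4 and Gsta4 and also by the envelope genes Cnfn, Sprr1a and Sprr1b. With each cell assigned by its own markers, Lor-low keratinocytes numbered 4377 and 4777, so shares of keratinocytes depend on how the cells were named. Doublet calling removed 129 cells of Ctrl-D, but it marked 0 cells of Eed iKO-D and so failed there, which leaves doublets among those cells. The targeted gene, Eed, was at 53.4 CPM (UMIs per 1e6 UMIs of the cell group; 51.9 to 54.8) in Lor-low keratinocytes of Ctrl-D and at 47.5 CPM (46.4 to 48.7) in Eed iKO-D, a ratio of 0.890 (0.858 to 0.923). Fibroblasts, which the Cre does not target, had a like ratio of 0.886 (0.689 to 1.16), so these counts do not show the deletion, and Lor-high cells had 8 and 3 Eed UMIs. Which part of Eed is floxed is not given in the sources used here, and reads from a 3' end outside it would not see the deletion.

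The family lies on chromosome 3 in the epidermal differentiation complex (GRCm38, mm10), spread over 399 kb between Lor and Flg. From Lor, the order is Lce6a, Lce1a1, Lce1b, Lce1a2, Lce1c and Lce1d, then Lce1e to Lce1l, then Lce3a to Lce3f, and last Lce1m. Lce1a1 (ENSMUSG00000057609) spans 92646535 to 92648307 on the minus strand, and Lce1l (ENSMUSG00000046676) spans 92849949 to 92851286 on the minus strand. Between them lie Lce1b (ENSMUSG00000027923, 92655650 to 92656926), Lce1a2 (ENSMUSG00000068890, 92668613 to 92670315) and Lce1d (ENSMUSG00000103243, 92685499 to 92687210) on the minus strand and Lce1c (ENSMUSG00000042092, 92679247 to 92680918) on the plus strand. Lce3c (ENSMUSG00000045475) spans 92944486 to 92945733 on the plus strand. Lce3a (ENSMUSG00000054325) spans 92925287 to 92926230 on the minus strand and Lce3d (ENSMUSG00000043472) spans 92957390 to 92958505 on the plus strand. Lce1m (ENSMUSG00000027912), at 93017810 to 93019060 on the minus strand, is therefore named as a Lce1 gene but sits beyond the Lce3 group. Counted over protein-coding genes from Lor it is the 48th, while Lce1a1 is the 25th and Lce3f the 46th.

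The promoters of the 5 Lce1 members nearest Lor were 54.0% to 79.0% identical to each other, and those of Lce1l and Lce1m were less like them. The 100 bases before the RefSeq start site (GRCm38.p6) are printed for 4 Lce1 and 2 Lce3 members, since the results below turn on Lce1m against the other Lce1 genes and on Lce3c and Lce3d. Capitals mark 3 motifs: TGTCTCAC, CATGCTTGG and the A/T-rich ATAAAA.
Lce1a1 (chr3:92648308-92648407, minus strand): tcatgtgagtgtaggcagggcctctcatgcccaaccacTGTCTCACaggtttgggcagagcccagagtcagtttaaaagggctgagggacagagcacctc
Lce1b (chr3:92656927-92657026, minus strand): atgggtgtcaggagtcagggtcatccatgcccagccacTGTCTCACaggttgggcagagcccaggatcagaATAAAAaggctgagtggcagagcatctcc
Lce1d (chr3:92687211-92687310, minus strand): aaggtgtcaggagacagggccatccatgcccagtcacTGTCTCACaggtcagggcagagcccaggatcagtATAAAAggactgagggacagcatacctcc
Lce1m (chr3:93019062-93019161, minus strand): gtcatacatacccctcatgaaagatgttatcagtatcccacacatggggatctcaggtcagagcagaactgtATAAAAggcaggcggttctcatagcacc
Lce3c (chr3:92944386-92944485, plus strand): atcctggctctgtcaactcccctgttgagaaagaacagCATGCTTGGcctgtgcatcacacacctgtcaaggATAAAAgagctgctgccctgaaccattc
Lce3d (chr3:92957290-92957389, plus strand): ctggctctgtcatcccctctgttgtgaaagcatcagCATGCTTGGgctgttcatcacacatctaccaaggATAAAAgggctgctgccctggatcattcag
Over these 100 bases Lce1d was 78.8% identical to Lce1a1, while Lce1m was 34.4% to 39.6% identical to the other Lce1 members and Lce1l 37.0% to 43.4%. Between Lce1 and Lce3 members the range was 30.5% to 41.0%. Lce3c and Lce3d were 67.3% identical. The motifs were picked after the sequences were seen, TGTCTCAC and CATGCTTGG as the longest words shared by at least 5 Lce1 or all 3 Lce3 members and ATAAAA as the start of another such word, and were searched on both strands in the 250 bases before the start. TGTCTCAC was found in 5 of 7 Lce1 members, in 0 of 3 Lce3 members and in 1.12% of 32851 mouse promoters, also in 5 of the 10 other Lce genes with a promoter in the table, and was absent from this window of Lce1c and Lce1m. CATGCTTGG was found in all 3 Lce3 members, in 0 of 7 Lce1 members, in 1 of the 10 other Lce genes (Lce3e, not Lce3b or Lce3f) and in 0.231% of all promoters. ATAAAA was found in 9 of the 10 members, all but Lce1a1, and in 17.0% of all promoters. These matches describe the letters only.

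Lce1 transcripts were concentrated in a handful of cells. Keratinocytes were split by Lor at 5 UMIs per 10,000 UMIs of the cell. Lor-high cells were 29 of 5415 keratinocytes in Ctrl-D, or 0.536% (0.359% to 0.768%), and 2 of 3046 in Eed iKO-D, or 0.0657% (0.00795% to 0.237%). In Ctrl-D these 29 cells held 99.4% of the Lce1 UMIs of all kept cells. Most of them, 24 of 29, and both Eed iKO-D cells fell into 1 cluster led by Lor and Cst6, although Lor and all Lce genes had been left out of the clustering. This cluster scored 1.34 for keratinocyte markers and 1.72 for hair matrix and inner root sheath markers. It was named keratinocyte because hair clusters were named by a separate rule. At the threshold itself, 3 Ctrl-D cells lay just outside (4 to 5 per 10,000) and 1 just inside (5 to 6), with 0 Lce1 UMIs in all 4, and 6 of the 29 cells had under 5 Lor UMIs and no Lce1 UMI.

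Summed over Lor-high cells, the Lce1 members reached 94762 UMIs in Ctrl-D, or 130248 CPM, and 369 UMIs in Eed iKO-D, or 4596 CPM. The ratio was 0.0353 (0.0318 to 0.0391), 28.3-fold lower in Eed iKO-D. The cells also differed in complexity, with a median of 1522 detected genes in the 29 Ctrl-D cells and 6371 in the 2 Eed iKO-D cells, and the part of this in the ratio was not tested. Leaving out the cell richest in Lce1 from each library gave 0.00771 (0.00527 to 0.0109). Per member, Lce1m had 20365 UMIs in Ctrl-D against 343 in the Eed iKO-D library and was 6.55-fold lower. Lce1a1 had 16639 and 20 UMIs and was 91.8-fold lower, and Lce1b had 16851 and 6 UMIs and was 310-fold lower. The other 4 members had no UMI in the 2 Eed iKO-D cells. Against a floor of 3 UMIs over the group, Lce1a2 (15045 UMIs in Ctrl-D) was at least 553-fold lower, Lce1d (13022) at least 479-fold, Lce1c (6511) at least 239-fold and Lce1l (6329) at least 233-fold. All 7 Lce1 members were thus at least 1.5 times lower, and 6 of 7 at least 10 times lower, where 23.3% and 3.17% of the 3467 genes with at least 20 UMIs over both libraries were. Their median log2 ratio was -10.45 with 0.5 UMI added, or -7.90 with members at 0 set to the floor, beside 0.56 over all measured genes. The rest of the Lce1 group, Lce1e to Lce1k, had 2604 to 5573 UMIs each in Ctrl-D, and of these Lce1f alone was detected in Eed iKO-D, with 4 UMIs.

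This sum stands on few cells, and the 2 Eed iKO-D cells carried RNA of another cell type. They held all 6 fibroblast markers (Col1a1, Col1a2, Col3a1, Dcn, Lum and Pdgfra) at 1415 UMIs, or 17625 CPM, against 1 UMI in the 29 Ctrl-D cells. Of the 11 keratinocyte markers 9 were present, at 1602 UMIs, with Krt1 and Trp63 at 0. Assigned by their own markers, both cells scored highest for fibroblasts, and of the 29 Ctrl-D cells 13 scored highest for keratinocytes. The 13 held 114 Lce1 UMIs, so most Lce1-rich cells were keratinocytes by cluster and by Lor and Flg, not by the marker score. Doublets were not removed from Eed iKO-D, and the part of this in the difference was not tested. In Ctrl-D, 196 of the 198 melanocyte-marker UMIs of the Lor-high cells lay in the single cell numbered 9 below.

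**Figure D1:**
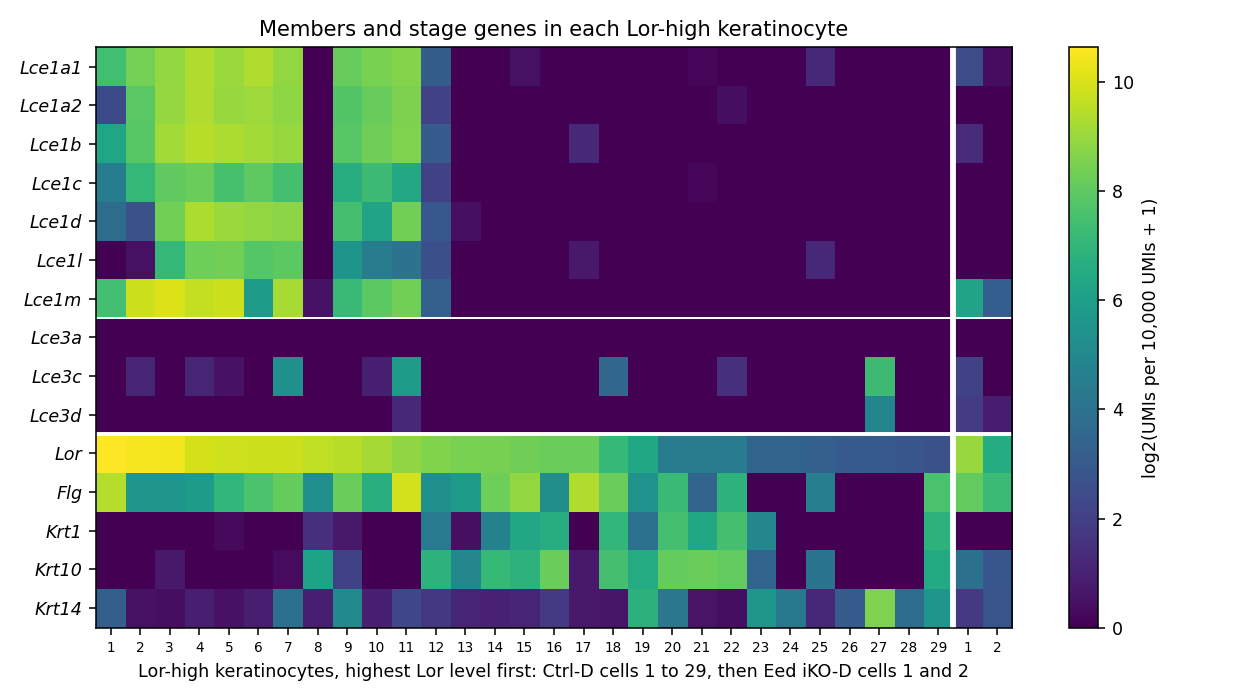
Levels of the 10 members and 5 stage genes in each of the 31 Lor-high keratinocytes, as log2(UMIs per 10,000 UMIs + 1), with the highest Lor level at the left of each library. Most Lce1 members are bright together in 10 of the first 11 Ctrl-D cells, where Krt10 is at or near 0, but Lce1l is at or near 0 in cells 1 and 2. In the 2 Eed iKO-D cells at the right Lce1m is the brightest of the group.

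Cell by cell, Lce1 in Ctrl-D was either near 0 or high. Numbered from the highest Lor level down, 11 Ctrl-D cells had at least 100 Lce1 UMIs, with 107 at the lowest, 5480 at the median and 25203 at the highest. In the richest by share, cell 4, Lce1 transcripts were 41.2% of all UMIs (14594 of 35401), and the median over the 11 cells was 19.2%. The cell with most, cell 7, held 26.6% of the Lce1 sum, and the 3 richest held 60.3%. The other 12 Ctrl-D cells with at least 5 Lor UMIs had 0 to 3 Lce1 UMIs. Nothing lay between 3 and 107, although the 2 sets overlapped in Lor: 391 to 1599 per 10,000 in the 11 cells and 8.72 to 780 in the 12.

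The 2 sets differed in their spinous keratins. Krt10 was at 0 to 299 UMIs, median 0, in the 11 Lce1-rich cells, and at 1 to 2578 UMIs, median 223, in the other 12. Krt1 was detected in 3 of the 11 and in 10 of the 12. Cell 8 shows the contrast at a high Lor level: it had 780 Lor UMIs per 10,000, 160 Krt10 UMIs and 1 Lce1 UMI, whereas cell 10 had 583 per 10,000, 0 Krt10 UMIs and 3265 Lce1 UMIs. Cell 12 had both, with 299 Krt10 and 107 Lce1 UMIs. Cell 17 had neither, with 1 Krt10 and 3 Lce1 UMIs and 1012 Flg UMIs. The 11 cells had a median of 1360 detected genes and the 12 a median of 3321. Flg did not divide the cells in this way, with medians of 225 UMIs in the 11 and 218 in the 12.

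**Figure D2:**
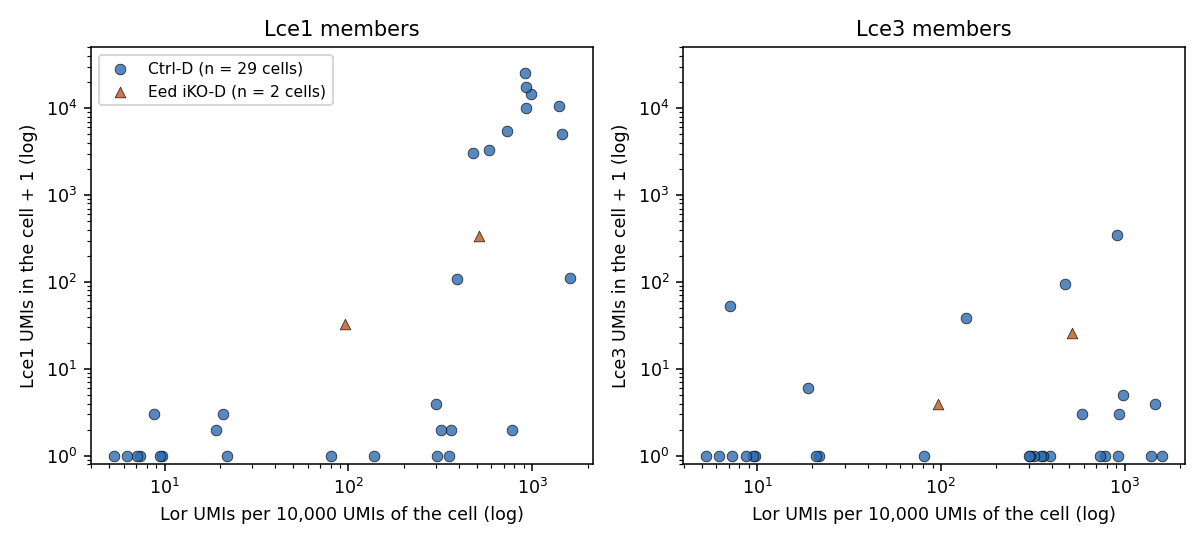
Lce1 UMIs (left) and Lce3 UMIs (right) of each Lor-high keratinocyte, plus 1, against its Lor level, both axes logarithmic; circles are the 29 Ctrl-D cells and triangles the 2 Eed iKO-D cells. On the left the Ctrl-D cells split into a low set at 0 to 3 Lce1 UMIs and a set at 107 to 25203, and the triangles lie at 32, between the sets, and at 337, in the lower end of the upper set.

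Matched on Lor, the 2 Eed iKO-D cells did not both fall on the same side of Ctrl-D. Cell 1 had 513 Lor UMIs per 10,000 and 337 Lce1 UMIs, and its nearest Ctrl-D neighbours, at 583 and 474 per 10,000, had 3265 and 3075. Cell 2 had 96.3 Lor UMIs per 10,000 and 32 Lce1 UMIs, while its neighbours, at 137 and 80.8, had 0 each. Above 400 Lor UMIs per 10,000, a range added after the data were seen, Lce1 was at 255072 CPM in 11 Ctrl-D cells and at 8029 CPM in the 1 Eed iKO-D cell. Between 100 and 400 it was at 724 CPM in 7 Ctrl-D cells, with no Eed iKO-D cell to set beside them. Of the 112 Lce1 UMIs in that range, 107 were in cell 12, at 391 Lor UMIs per 10,000.

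The makeup of the Lce1 UMIs also differed. Summed over Ctrl-D Lor-high cells, the levels ran from Lce1m at 27991 CPM (27608 to 28378) through Lce1b at 23161 (22813 to 23514), Lce1a1 at 22870 (22524 to 23220), Lce1a2 at 20679 and Lce1d at 17898 to Lce1c at 8949 (8733 to 9169) and Lce1l at 8699 (8486 to 8916). UMIs count transcripts whatever their length. The intervals of Lce1b and Lce1a1 overlapped, and so did those of Lce1c and Lce1l. Lce1m made up 2.1% to 49.0% of the Lce1 UMIs of the 11 Lce1-rich Ctrl-D cells, median 20.6%. In the Eed iKO-D cells it made up 92.6% (312 of 337 UMIs) and 96.9% (31 of 32). Both lay above every Ctrl-D cell of this set. The rest in cell 1 was 19 Lce1a1 and 6 Lce1b UMIs, and in cell 2 it was 1 Lce1a1 UMI. A Ctrl-D barcode outside the kept cells, with 223 genes, had 18 Lce1 UMIs, all of Lce1m.

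**Figure D3:**
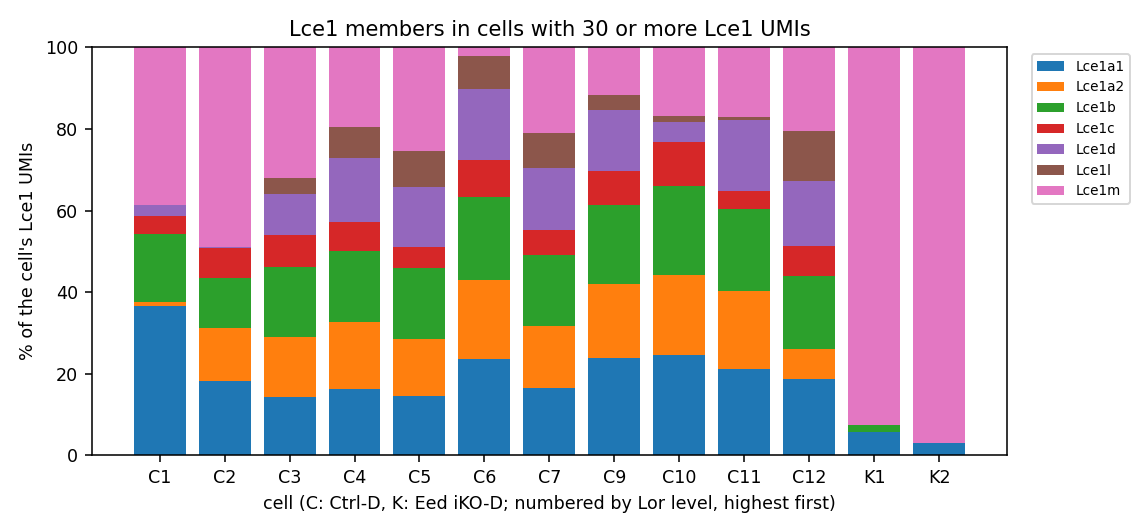
Share of each Lce1 member among the Lce1 UMIs of the cell, in percent, for the 13 cells with 30 or more Lce1 UMIs (C, Ctrl-D; K, Eed iKO-D; numbered by Lor level). Lce1m is at most 49.0% in the Ctrl-D cells and at 92.6% and 96.9% in the 2 Eed iKO-D cells.

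Among the Ctrl-D cells, the Lce1 members did not keep 1 proportion. In cell 2, Lce1a1 to Lce1c had 362 to 908 UMIs each. Lce1d to Lce1l, next on the chromosome, had 0 to 59 each, and Lce1m beyond them had 2442. Whether the differences follow the order of the genes was not tested. Cells 1 and 2, with the highest Lor levels, had 40 and 908 Lce1a1 UMIs and 42 and 2442 Lce1m UMIs, but 3 and 14 Lce1d UMIs and 0 and 1 Lce1l UMIs. In cell 4 Lce1d had 2280 and Lce1l 1096 UMIs beside 2374 of Lce1a1. Cell 6 went the other way for Lce1m, with 210 UMIs, or 2.1% of its Lce1 UMIs, beside 2371 of Lce1a1. The range across cells was 14.4% to 36.7% for Lce1a1, 12.3% to 21.6% for Lce1b, 0.281% to 17.4% for Lce1d and 0% to 12.1% for Lce1l. Some of these genes share sequence at the 3' end that was counted. Of the 50-base words in the last 300 bases, 0% of those of Lce1l and Lce1m, 16.3% of those of Lce1a1 and 32.7% of those of Lce1b occur in a transcript of another gene, and for Lce3d it is 42.2%, all in Lce3c. How reads that match 2 genes were counted is not given in the sources used here, so the split between Lce3c and Lce3d and within the Lce1 genes near Lor is uncertain.

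Summed over the cells below the Lor threshold, Lce1 in Ctrl-D was no higher than in cells that should lack it. Lor-low keratinocytes of Ctrl-D had 500 Lce1 UMIs, or 5.06 CPM (4.63 to 5.52), in 424 of 5386 cells. Of these cells 385 had exactly 1, and the highest had 18. Cells that should lack the genes were alike: 6.79 CPM (3.71 to 11.4) in T cells and 5.45 CPM (2.90 to 9.33) in fibroblasts of Ctrl-D. The share of cells with a Lce1 UMI was 7.87% in Lor-low keratinocytes at a median of 15637.5 UMIs, and 4.80% in fibroblasts at 8172. After thinning to 1500 UMIs it was 0.700% and 0.826%. Eed iKO-D had 19 Lce1 UMIs (0.139 CPM) in 3044 Lor-low cells, and the ratio was 0.0274 (0.0164 to 0.0433). Its fibroblasts were at 0.0618 CPM (0.0168 to 0.158), lower than those of Ctrl-D as well. The part of free RNA in this ratio was not tested. All 7 Lce1 members counted as at least 1.5 times lower and 6 as at least 10 times lower, where 16.8% and 0.973% of 19520 genes were.

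Taking the stage from Flg instead of Lor gave both libraries cells to compare. At 2 Flg UMIs per 10,000 or more there were 60 keratinocytes in Ctrl-D, or 1.11% (0.847% to 1.42%), and 39 in Eed iKO-D, or 1.28% (0.912% to 1.75%). In Ctrl-D 24 of the 60 were also Lor-high and held all but 20 of their 94782 Lce1 UMIs. In Eed iKO-D 2 of the 39 were Lor-high, and the other 37 had 3 Lce1 UMIs and 3 Lor UMIs in all. The level of Flg was not matched: its median was 20.4 per 10,000 in the 60 cells and 3.69 in the 39. The 36 Ctrl-D cells that were Flg-positive but Lor-low had a median of 4.22 Flg UMIs per 10,000, and the 37 Eed iKO-D cells 3.60. The 36 had 20 Lce1 UMIs, 13 of them in 1 cell, or 25.8 CPM (15.7 to 39.8). The 37 were lower, at 2.2 CPM (0.46 to 6.5). Both levels were far below the 131671 CPM of the 24 Ctrl-D cells that were also Lor-high. Of these Flg-positive, Lor-low cells, 29 of 37 in Eed iKO-D but 4 of 36 in Ctrl-D lay in a cluster led by Sprr2d, Krt6b, Arg1 and Sprr1a.

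Most Lce3 transcripts lay in other cells than most Lce1 transcripts. In Ctrl-D 93.7% of Lce3 UMIs were in Lor-low keratinocytes and 5.33% in Lor-high ones. In Eed iKO-D Lor-low keratinocytes held 64.6%, Lor-high ones 0.576%, and unnamed clusters, with a median of 2444 UMIs per cell, held 1345 of 4859 UMIs. Of the Lce UMIs of the 10 members, Lce3 made up 0.569% (0.522% to 0.619%) in Lor-high keratinocytes of Ctrl-D and from 94.6% to 95.4% in Lor-low ones. In Eed iKO-D it made up 7.05% (4.74% to 10.0%) and 99.4% (99.1% to 99.6%). Over all keratinocytes it was 9.56% in Ctrl-D against 89.1% in the Eed iKO-D library. At least 10 UMIs of each group occurred together in 3 Ctrl-D cells and 1 Eed iKO-D cell. These are shares of sums, over far more Lor-low than Lor-high cells. Per UMI, Lce3 was higher in Lor-high keratinocytes: 745 against 96.4 CPM in Ctrl-D and 349 against 22.9 CPM in Eed iKO-D. Of the 11 Ctrl-D cells with at least 100 Lce1 UMIs, 6 had Lce3 UMIs, with 343 in the highest.

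In Lor-low keratinocytes the Lce3 sum was 9525 UMIs, or 96.4 CPM (94.4 to 98.3), in Ctrl-D and 3140 UMIs, or 22.9 CPM (22.1 to 23.8), in Eed iKO-D, a ratio of 0.238 (0.229 to 0.248). Lce3c had 4864 and 2742 UMIs, a ratio of 0.407 (0.388 to 0.427). Lce3d had 4399 and 356 UMIs, a ratio of 0.0584 (0.0523 to 0.0651). Lce3a had 262 and 42 UMIs, a ratio of 0.116 (0.0815 to 0.161), and 248 of its 262 UMIs in Ctrl-D were in 1 cell. All 3 members were at least 1.5 times lower and 1, Lce3d, at least 10 times lower, while 0 of the 10 members were among the 2.91% of genes at least 10 times higher. The direction of the sum depended on 3 Ctrl-D cells, with 3259, 2920 and 1544 Lce3 UMIs, which held 81.1% of it. Without them the levels were 18.3 CPM in Ctrl-D and 22.9 CPM in Eed iKO-D, a ratio of 1.26 (1.18 to 1.33), and without the 3 richest cells of each library the ratio was 0.774 (0.726 to 0.826).

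**Figure D4:**
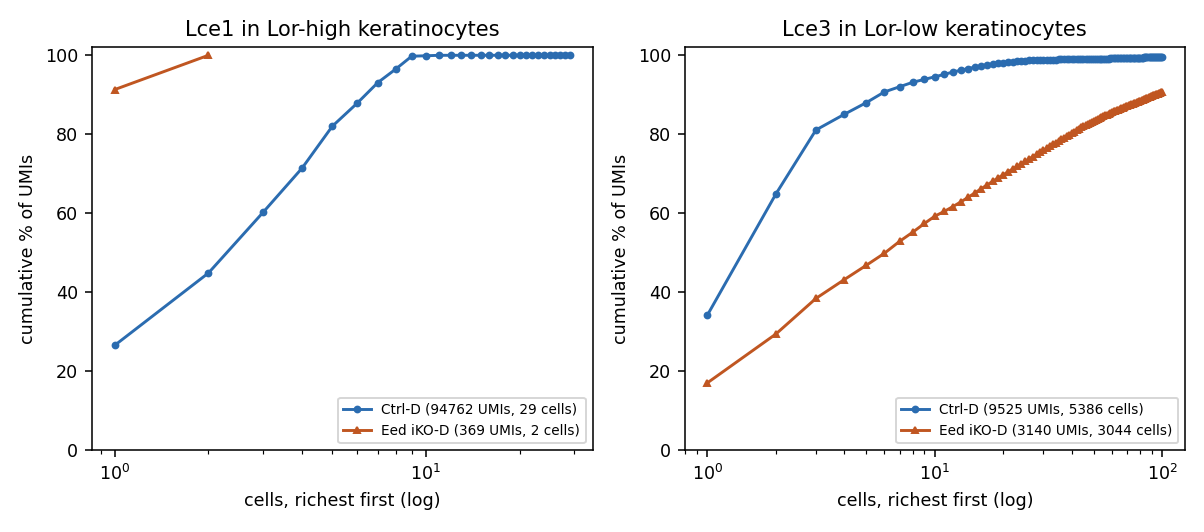
Cumulative percent of Lce1 UMIs in Lor-high keratinocytes (left) and of Lce3 UMIs in Lor-low keratinocytes (right), with cells ordered from the richest and at most 100 cells drawn; the cell axis is logarithmic. The first 3 Ctrl-D cells hold 60.3% of Lce1 and 81.1% of Lce3, and the first 3 Eed iKO-D cells hold 38.4% of Lce3.

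Counted as cells, the order was the other way round. Lor-low keratinocytes with at least 10 Lce3 UMIs, called Lce3-rich here, were 22 of 5386 in Ctrl-D, or 0.408% (0.256% to 0.618%), and 45 of 3044 in Eed iKO-D, or 1.48% (1.08% to 1.97%). They had 10 to 3259 Lce3 UMIs, median 57, in Ctrl-D and 10 to 536, median 21, in Eed iKO-D, and held 98.4% and 82.0% of the Lce3 UMIs of the group. Median depth was 15637.5 UMIs in Lor-low keratinocytes of Ctrl-D and 38192.5 in those of Eed iKO-D, so a fixed number of UMIs is easier to reach there. By rate, the answer depended on the threshold. Each rate also required at least 3 Lce3 UMIs in the cell, a minimum that bears more on the shallower cells of Ctrl-D. At least 1 Lce3 UMI per 10,000 was reached by 0.538% (0.361% to 0.772%) of Ctrl-D and 2.27% (1.77% to 2.86%) of Eed iKO-D cells, and at least 2 by 0.464% (0.301% to 0.684%) and 1.48% (1.08% to 1.97%), both higher in Eed iKO-D beyond counting error. At higher rates the intervals overlapped: 0.334% (0.198% to 0.528%) of Ctrl-D and 0.591% (0.351% to 0.933%) of Eed iKO-D cells had at least 5 Lce3 UMIs per 10,000, and 0.297% and 0.329% had at least 10. At least 1 Lce3 UMI was found in 2.53% of Ctrl-D and 11.5% of Eed iKO-D Lor-low keratinocytes, or 0.662% and 1.81% after thinning to 1500 UMIs. Other cells of Eed iKO-D lay on both sides of its 1.81% (1.37% to 2.35%): the thinned share was 2.23% (1.45% to 3.27%) in neutrophils, at a median of 4924 UMIs, and 0.531% (0.283% to 0.906%) in fibroblasts, at 24300. Lce3 was at 15.9 CPM in these neutrophils and 2.59 CPM in these fibroblasts, against 22.9 CPM in Lor-low keratinocytes.

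Lce3-rich cells sat mainly in 2 clusters, which the libraries filled unequally. Shares by cluster are given over all its keratinocytes, and 1 of the Ctrl-D cells counted in the first cluster was Lor-high. The cluster led by Sprr2d, Krt6b, Arg1 and Sprr1a held 106 cells of Ctrl-D and 875 of the Eed iKO-D library, of which 12 and 28 had at least 10 Lce3 UMIs: 11.3% (5.99% to 18.9%) and 3.20% (2.14% to 4.59%). The cluster led by Prl8a9, Lama3 and Hmga2 held 149 and 1560 cells, of which 7 and 17 did: 4.70% (1.91% to 9.44%) and 1.09% (0.636% to 1.74%). Within each of these clusters the share was higher in Ctrl-D, while over all Lor-low keratinocytes it was higher in Eed iKO-D. In the cluster led by Chil4, Sprr2a3 and Krt1, 0 of 1913 and 0 of 469 cells had that many.

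**Figure D5:**
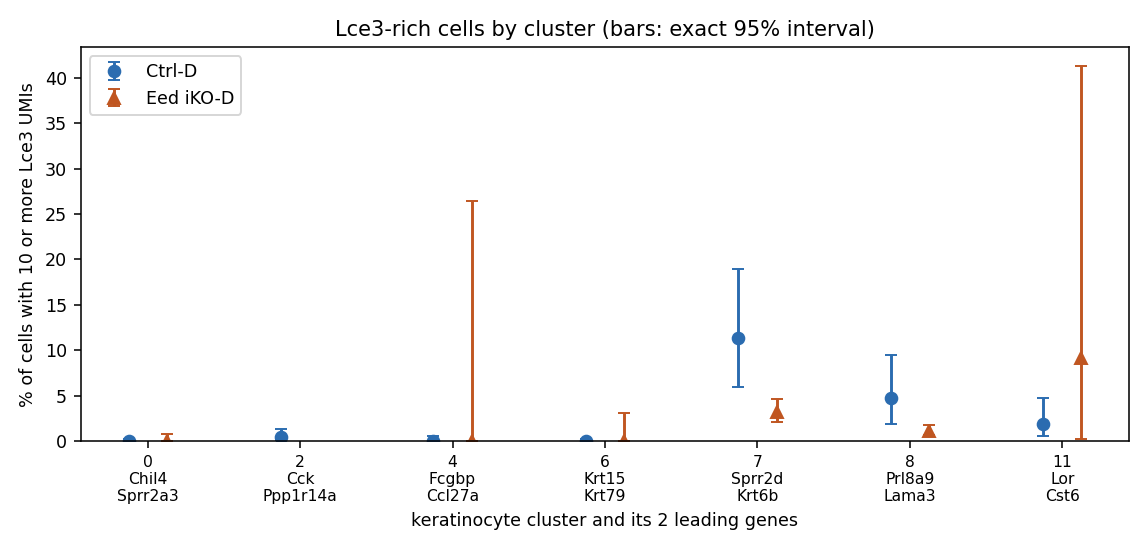
Percent of cells with at least 10 Lce3 UMIs in each keratinocyte cluster, with exact 95% intervals of counting error; circles are Ctrl-D and triangles Eed iKO-D. The clusters led by Sprr2d and by Prl8a9 stand highest in Ctrl-D, at 11.3% and 4.70%, above the 3.20% and 1.09% of Eed iKO-D.

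The Lce3-rich cells carried Krt14, and their summed levels of Krt6b and Cnfn were higher than those of other Lor-low cells. Low Lor was fixed by the choice of cells, and Lor was at 12.3 CPM in those of Ctrl-D and 0.622 CPM in those of Eed iKO-D, against 4.48 and 0.584 CPM in the other Lor-low cells. Krt10 was at 4 UMIs or fewer in 19 of 22 and 42 of 45, but its sums, at 1135 and 372 CPM against 762 and 162, were not lower than in the other Lor-low cells. Most of these sums came from 1 cell in each library, with 868 and 1113 UMIs. All 67 had Krt14, with 65 to 2085 UMIs in Ctrl-D cells and 39 to 6582 in Eed iKO-D cells. Krt6b, a keratin of wounded and hyperproliferative epidermis, was at 4875 CPM in these cells of Ctrl-D and 5715 CPM in those of Eed iKO-D, against 564 and 1241 CPM in the other Lor-low cells. Cnfn (cornifelin, a cornified envelope protein) was at 4264 and 409 CPM, against 25.8 and 17.7. Krt6b was detected in 21 of 22 and 45 of 45 cells, and Cnfn in 15 of 22 and 28 of 45. The Ctrl-D cell richest in Lce3 had no Cnfn UMI and 0.612 Krt6b UMIs per 10,000, so the sums do not describe every cell. Many Lce3-rich cells lay in the cluster led by Sprr2d, Krt6b, Arg1 and Sprr1a, which Cnfn also leads. They were not compared with the other cells of that cluster. Flg was detected in 3 of 22 and 21 of 45, at depths that were not matched.

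The member used within the Lce3 group varied from cell to cell. In Ctrl-D the richest cell had 1315 Lce3c and 1944 Lce3d UMIs, the second 1757 and 1163, and the third 857 and 439 with 248 of Lce3a. The fourth had 41 Lce3c and 338 Lce3d UMIs, the sixth 238 and 19, and the seventh 0 and 125. In Eed iKO-D Lce3c led in most of the richest: 408 against 128 Lce3d UMIs, 379 against 9, 267 against 16 and 150 against 0. Lce3c was detected in 18 and Lce3d in 16 of the 22 Ctrl-D cells, and in 44 and 16 of the 45 Eed iKO-D cells.

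Lce1g, which the Lce1 list did not include, was found with Lce3 in Ctrl-D. Of its 966 UMIs in Lor-low keratinocytes, 824, or 85.3% (82.9% to 87.5%), lay in 6 of the 22 Lce3-rich cells, which held 0.903% of all UMIs, and 593 lay in 1 cell. Of the other Lce1 genes, Lce1d had 19 of 86 UMIs there, or 22.1% (13.9% to 32.3%), and Lce1f 16 of 74, or 21.6%, each in 2 cells, whereas Lce1a1 had 3 of 79 and Lce1m 2 of 91. Lce3b, Lce3e and Lce3f, also outside the rule, had 90.5%, 97.7% and 97.7% of their UMIs there. Lce1g reached 4002 UMIs in Lor-high cells, so it was present in both kinds of cell. In Eed iKO-D it had 34 UMIs in Lor-low keratinocytes, 3 of them in the Lce3-rich cells.

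In Lor-high cells the Lce3 sum was 542 UMIs in Ctrl-D against 28 in the Eed iKO-D library, a ratio of 0.468 (0.308 to 0.684). Of the 542, 343 came from the cell with most Lce1 (cell 7), 93 from cell 11, and 52 from a cell with 2 Lor UMIs and 107 Krt14 UMIs. Without cell 7 the ratio was 1.12. Lce3c had 532 and 14 UMIs, and Lce3a had 0 in both. Lce3d had 10 and 14 UMIs and was 12.7-fold higher in Eed iKO-D (5.24 to 31.9), where 4.9% of genes were at least 10 times higher. Of its 10 Ctrl-D UMIs, 8 lay in the cell with 2 Lor UMIs. Cell 1 of Eed iKO-D, which carried fibroblast markers, held 11 of the 14, so this ratio stands on few cells. Of the 3 Lce3 members 2 thus passed the minimum in Lor-high cells, 1 lower and 1 higher.

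Other envelope genes, from lists chosen with earlier results of these data known, did not all go with Lce1 in Lor-high cells. Over all 3467 measured genes, 48.8% were at least 1.5 times higher in Eed iKO-D, which made 1693 higher and 809 lower. Median-ratio scaling shifted every gene down by 1.22 on the log2 scale and turned this into 646 higher and 1830 lower, with the 7 Lce1 members still lower, so lists are given under both scalings. Of 10 measured proline-rich neighbours in the epidermal differentiation complex, 9 were lower and 0 higher, median -2.36 (-0.91 with zeros at the floor), and all 10 were lower with the second scaling. Sprr1a and Sprr1b, which encode cross-linked envelope proteins, had 1924 and 680 UMIs in Ctrl-D cells and 1 and 0 in Eed iKO-D cells. Of 4 measured filaggrin-type genes 3 were higher and 0 lower, median 0.71, but 1 was higher and 1 lower with the second scaling. Hrnr (hornerin) was 4.33-fold higher, at 1359 and 649 UMIs, and stayed higher, while Flg2 was 1.67-fold higher, at 2997 and 551 UMIs, by less than the shift. Flg itself was at 17420 CPM in Ctrl-D cells and 21387 CPM in Eed iKO-D cells, a ratio of 1.23 that is also within the shift, and Lor at 55125 and 31414 CPM.

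Of 22 measured cross-linking and processing enzymes 9 were higher and 6 lower, median 0.27, against 2 and 13 with the second scaling. Lipk, an epidermal lipase, had 72 and 58 UMIs and was 7.30-fold higher, and Abca12, a lipid transporter of lamellar granules, was 3.77-fold higher, both by more than the shift. Of 17 other granular and envelope proteins 11 were lower and 4 higher, median -0.84 (13 and 0 with the second scaling), with Ly6g6c at 1478 and 6 UMIs and the desmosomal cadherin Dsg1a at 291 and 2. The spinous list had 5 measured genes, 2 lower and 2 higher (3 and 1 with the second scaling), with Krt1 at 2258 and 0 UMIs and Krt10 at 6012 and 84. Of 19 regulators of differentiation 9 were lower and 3 higher, median -0.56 (16 and 0), with Pou3f1 at 84 and 0 UMIs and Gata3 at 77 and 0. All 9 measured genes of inflamed or wounded epidermis were lower under both, median -3.53, with Krt17 at 897 and 1 UMIs and Defb14, an antimicrobial peptide gene, at 289 and 0.

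Genes whose pattern was most like the family were ranked by Pearson's r of log2 levels. Over 13 sums by library and cell group, none of them a Lor-high range since each had under 30 cells, Lce1 was most like Gm12166 (0.91), Psenen (0.90), Eif1 (0.89), Ubb (0.88) and Lor (0.88), in groups where Lce1 was near 0. Lce3 was most like Krt24 (0.93), Tmprss4 (0.92), Sprr1a (0.92), H60c (0.92) and Wfdc5 (0.90). Over the 23 Ctrl-D Lor-high cells with at least 5 Lor UMIs, a ranking added after the data were seen, Lce1 was most like Kprp (0.96), Mapk13 (0.95), Nt5c3 (0.94), Ube2d3 (0.94) and 2310050C09Rik (0.93). In the same cells r was -0.89 for Krt10, 0.68 for Lor and 0.20 for Flg. Over single Lor-low keratinocytes, Lce3 was most like Mal (0.54), Crct1 (0.52), Trex2 (0.46), Alox12b (0.43) and Cnfn (0.42) in Ctrl-D, and most like Cnfn (0.42), Alox12b (0.41), Klk12 (0.39), Degs2 (0.38) and Trex2 (0.35) in Eed iKO-D. Cells of 1 library share its depth and free RNA, and these values are descriptions.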

How the data were processed

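Both samples were 10x Genomics 3' libraries, 1 per group. Matrices of unnormalized UMI counts were deposited, per the file headers, already limited to barcodes called as cells. Cell Ranger is version 2.1.0 per the labels' protocols, 8.0 per the submitters' processing notes and 7.1.0 as the matrices' headers state, and the build is mm10.

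Cells with at least 500 genes and at most 15% mitochondrial UMIs were kept, and Scrublet doublets (scanpy 1.11.5, expected rate 0.08) were removed. Leiden clusters (resolution 1.0; 2000 variable genes without Lor and Lce genes, 30 components, 15 neighbours) were named from fixed markers by a scoring rule set after the data were seen: mean score and lead of at least 0.3, at least 3 raised markers. Hair matrix and inner root sheath was left out of this contest and named from at least 3 of its markers among a cluster's 10 leading genes. Clusters that failed the rule were unnamed. So were those with over 10% Gm42418 UMIs and under 3 own markers among their 10 leading genes. UMIs were summed per library and cell group and given as CPM with exact Poisson intervals, shares with Clopper-Pearson intervals and ratios with conditional binomial intervals, all at 95%. A single library in each group allowed no test. Called means at least 1.5 or 10 times apart, with 0.5 UMI added, among genes with at least 20 UMIs.

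All 10 members and Lor, Flg, Krt10 and Krt14 were named, with the 2 genes of largest log2 ratio per list among those with at least 50 UMIs, and the 5 most alike. Other named genes (Lce1g, other Lce genes, Krt6b, Cnfn, Krt1, Eed), the sets of Lce1-rich and Lce3-rich cells, and the cells singled out by number were chosen after their values were seen. Members and lists were chosen with earlier results of these data known. On simulated counts of 3235 genes in Lor-high cells, intervals covered the true ratio for 96.9%, true 10-fold drops passed the 1.5-fold mark for 97.6% and unchanged genes for 17.0%, by counting error alone. In Lor-low cells, 95.6% of 19287 genes were covered.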

Additional observations from a re-analysis of the deposited data

Results flagged for a closer look

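The cell filter left out barcodes with few genes, and these held Lce1 transcripts in Ctrl-D. Outside the kept cells there were 455 Lce1 UMIs in Ctrl-D, and the Eed iKO-D library had 1. Of the 455, 396 lay in 1 barcode with 268 genes and 1501 UMIs, 26.4% of them Lce1, beside 182 Lor UMIs and 0 Krt10 UMIs. Its 7 Lce1 members were at 42 to 68 UMIs each. Another, with 223 genes, had 18 Lce1 UMIs, all of Lce1m, and 93 Lor UMIs.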

How the results depend on the processing

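No paired analysis was possible because each group has 1 library. Lce1 was lower in Eed iKO-D Lor-high keratinocytes under each of the 17 alternatives that gave a ratio, and 9 of them fell within its counting interval around 0.0353. Most of these alternatives counted the same 2 Eed iKO-D cells with 369 Lce1 UMIs, so their shared direction was largely fixed in advance. The ratio was 0.0284 over all kept cells, 0.00413 with the stage from Flg, 0.0151 with median-ratio scaling, 0.0538 as a mean over cells, 0.0579 after thinning, and 0.0424 or 0.0682 without the 1 or 3 richest Ctrl-D cells. Without the richest cell of each library it was 0.00771. With cells assigned by their own markers no Eed iKO-D cell was left and the Lce1-rich Ctrl-D cells scored mostly for other classes (114 Lce1 UMIs remained), so no ratio was possible, nor was one without the 3 richest cells of each library. In Lor-low cells the Lce1 ratio was 0 after thinning. The Lce3 ratio in Lor-high cells turned to 2.11 with the stage from Flg and to 1.12 and 1.01 without the 1 and 3 Ctrl-D cells richest in Lce1, and was 0.201 with median-ratio scaling, 0.271 after thinning and 0.252 without the cell richest in Lce1 of each library. The Lce3 ratio in Lor-low cells turned to 1.26 without the 3 richest Ctrl-D cells. It was 0.261 with at least 200 genes and at most 25% mitochondrial UMIs, 0.249 with cells assigned by their own markers, 0.205 over all kept cells, 0.152 with the stage from Flg, 0.264 with doublets kept, 0.188 with median-ratio scaling, 0.646 as a mean over cells, 0.590 after thinning, 0.362 without the richest Ctrl-D cell, and 0.30 or 0.774 without the 1 or 3 richest of each library. The cause was not tested, beyond the cells left out. Median-ratio scaling shifted all genes by 1.22 (log2) in Lor-high and 0.34 in Lor-low cells. In Lor-low cells it turned 7524 higher and 3279 lower genes into 5160 and 5118. Genes at least 1.5 times higher and lower numbered 1693 and 809, against 631 and 458 with at least 50 UMIs and 8449 and 1489 with at least 1 UMI, since fewer or more genes were counted. Alternatives that leave out the richest cells were chosen after seeing the data. With 2 Lor-high cells in Eed iKO-D, depth and cell number limit every ratio in that group.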
